A study of Homo sapiens with 9 samples.

Results

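The collagen genes were taken as the protein-coding genes with a symbol made of COL, a number, A and a number, from COL1A1 to COL28A1. There were 44 of them among the 61544 genes of the count files, and all 44 were found. They were followed in H1975, a line of human lung adenocarcinoma cells of epithelial type, of which 9 libraries of total RNA were sequenced. All cells first received si78, an siRNA against GRP78, for 24 h and then a plasmid for 48 h. The plasmid was the empty vector (Vector, 3 libraries), FLAG-tagged GRP78 (F-78(WT), here WT, 3 libraries) or FLAG-tagged GRP78 with lysines of its nuclear localization signal changed to alanine (F-78(NLS Mut), here NLS Mut, 3 libraries). GRP78, encoded by HSPA5, is a chaperone of the endoplasmic reticulum (ER), and the study asked what its nuclear fraction does to gene expression. The Vector group therefore carries si78 too, and no library used here comes from cells that lack the siRNA. The cells are 1 line, and nothing in the labels says that the libraries of a group came from separate cultures, so that p-values measure the spread between these libraries, which may be technical.

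Collagens are secreted or membrane-bound proteins in which 3 chains wind into a triple helix. The chains are made and hydroxylated in the ER, assembled from their C-terminal ends and exported as procollagen. Fibrillar collagens form the banded fibrils that give tissue its tensile strength, type IV collagens form the sheet of the basement membrane, and fibril-associated collagens with interrupted triple helices (FACIT) decorate the surface of fibrils. In carcinoma most fibrillar collagen is made by fibroblasts of the stroma, while epithelial cells are a source of basement membrane and hemidesmosome collagens.

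Part of the study concerns ID2, which sequesters proteins that bind the E-box, so the bases before the start of the collagen genes that differed between groups are shown with each E-box in capitals. The sequences are those of RefSeq (GRCh38.p14), 5′ to 3′ on the strand of the gene, and cover the 250 bases before the start except those that the annotation places in an exon of the gene. An E-box was any CANNTG, a motif that reads the same on both strands. The 4 sequences are those of the members called in a comparison that have an entry, and lie at chr6:75206054-75206303 (minus strand) for COL12A1, chr10:104085958-104086130 (minus) for COL17A1, chr9:134641553-134641773 (plus) for COL5A1 and chr3:48595330-48595579 (minus) for COL7A1. COL1A2 and COL6A1 are the other members called.

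COL12A1: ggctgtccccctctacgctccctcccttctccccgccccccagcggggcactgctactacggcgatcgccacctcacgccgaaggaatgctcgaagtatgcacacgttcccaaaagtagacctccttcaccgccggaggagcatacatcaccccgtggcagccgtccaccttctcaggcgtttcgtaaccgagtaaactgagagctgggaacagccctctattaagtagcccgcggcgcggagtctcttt
COL17A1: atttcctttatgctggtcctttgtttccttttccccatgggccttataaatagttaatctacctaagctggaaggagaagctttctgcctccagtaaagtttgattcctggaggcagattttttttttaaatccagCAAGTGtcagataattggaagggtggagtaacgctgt
COL5A1: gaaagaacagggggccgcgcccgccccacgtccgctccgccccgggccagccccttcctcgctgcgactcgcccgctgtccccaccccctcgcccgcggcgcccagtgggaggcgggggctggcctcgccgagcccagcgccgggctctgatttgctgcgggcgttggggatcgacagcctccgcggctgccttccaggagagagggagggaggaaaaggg
COL7A1: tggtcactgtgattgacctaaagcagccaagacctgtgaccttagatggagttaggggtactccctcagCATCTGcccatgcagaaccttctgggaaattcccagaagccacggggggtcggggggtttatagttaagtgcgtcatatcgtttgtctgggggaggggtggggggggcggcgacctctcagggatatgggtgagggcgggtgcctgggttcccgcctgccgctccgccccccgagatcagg

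No CANNTG was in the stretches of COL12A1 and COL5A1, while COL17A1 had 1 (CAAGTG, at base 137 of the stretch) and COL7A1 had 1 (CATCTG, at base 70). Of the 17 collagen genes at 1 CPM or more that have an entry, 10 (58.8%) held CANNTG before the most upstream start listed for them, against 61.8% of all 35116 windows. Of the 44 members 32 have an entry. Windows cover up to 250 bases (173 for COL17A1 and 221 for COL5A1), so the shares are not matched for length. The subtype CACGTG was in 0 of the 17 against 6.34% of all, CAGCTG in 2 (11.8%, COL16A1 and COL27A1) against 13.99%, and CAGGTG or its complement CACCTG in 3 (17.6%) against 17.5%. These letters describe the windows and say nothing of binding.

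Each library held 17671055 to 27476298 reads counted on genes. HSPA5 was at 378 ± 17.1 CPM (reads per 1000000 counted reads, SD, n = 3) in Vector, 5664 ± 572 in WT and 4961 ± 195 in NLS Mut, which is 15.0-fold and 13.1-fold above Vector. The 2 plasmids gave levels of HSPA5 that differed by 0.19 on the log2 scale (standard error, SE, 0.05) and not beyond the threshold of edgeR (adjusted p = 0.079). Of 8 epithelial markers 7 were at 1 CPM or more, and of 9 fibroblast markers 2, PDGFRB (8.93 CPM) and ACTA2 (2.28 CPM). DCN and TCF21, 2 of the fibroblast markers, had 0 reads in every library, and of 3 leukocyte markers 0 reached 1 CPM. Of 3 endothelial markers 2 reached 1 CPM. The 3 endothelial markers summed to 5.36 to 7.03 CPM in Vector, 6.89 to 8.05 in WT and 5.29 to 7.24 in NLS Mut. The summed level of the 9 fibroblast markers was 9.55 to 13.1 CPM in Vector, 13.3 to 16.0 in WT and 9.39 to 11.6 in NLS Mut, and its part in the values below was not tested. In bulk RNA, fewer cells that express a gene and less RNA per cell cannot be told apart.

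H1975 cells expressed 23 of the 44 collagen genes at a mean of 1 CPM or more over the 9 libraries. These were 6 of 11 fibrillar, 2 of 6 basement membrane, 4 of 10 FACIT, 3 of 5 beaded filament (type VI), 2 of 3 network-forming, 2 of 4 transmembrane, 1 of 2 multiplexin and 2 of 2 other genes, and the anchoring fibril gene COL7A1. Levels ranged over more than 2 orders of magnitude, with 6 genes at 100 CPM or more, 6 between 10 and 100 CPM and 11 between 1 and 10 CPM. All collagen genes together took 0.223% to 0.241% of the counted reads in the Vector libraries, 0.219% to 0.235% in WT and 0.187% to 0.197% in NLS Mut, so the NLS Mut libraries lay below all others. COL5A1 alone gave 33.3% to 36.0% of the collagen reads of a library.

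To compare levels between genes, CPM was divided by the length of the gene's exons in kilobases (FPKM). COL5A1, which encodes a chain of type V collagen that starts and limits fibril growth, was the highest at 68.2 FPKM over the 9 libraries. COL6A1 (35.9), a chain of the beaded filaments of type VI, COL7A1 (22.9), which forms the anchoring fibrils below the epithelium, and COL1A1 (20.3), the main chain of type I collagen, followed. COL12A1 (16.7), a FACIT on type I fibrils, COL6A2 (16.1) and COL1A2 (15.0), the second chain of type I, lay close together, and in Vector COL12A1 (16.4 ± 0.903, SD, n = 3), COL6A2 (16.9 ± 1.23) and COL1A2 (15.4 ± 0.715) did not differ beyond the spread between libraries. Next were COL17A1 (9.54), COL18A1 (8.41), COL8A1 (5.44), COL27A1 (3.91) and COL13A1 (2.28).

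The remaining expressed genes were under 1 FPKM. They were COL5A2 (0.858), COL4A6 (0.611), COL16A1 (0.609), COL11A2 (0.506), COL9A3 (0.494), COL4A5 (0.488), COL26A1 (0.442), COL28A1 (0.348), COL6A3 (0.304), COL9A2 (0.254) and COL8A2 (0.237). Genes whose chains share a helix were far apart in places. COL5A2, the usual partner of COL5A1, was at 0.0129 ± 0.00336 of the level of COL5A1 in Vector (SD, n = 3), and COL6A3, the third chain of type VI, at 0.00661 ± 0.00190 of COL6A1.

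**Figure D1:**
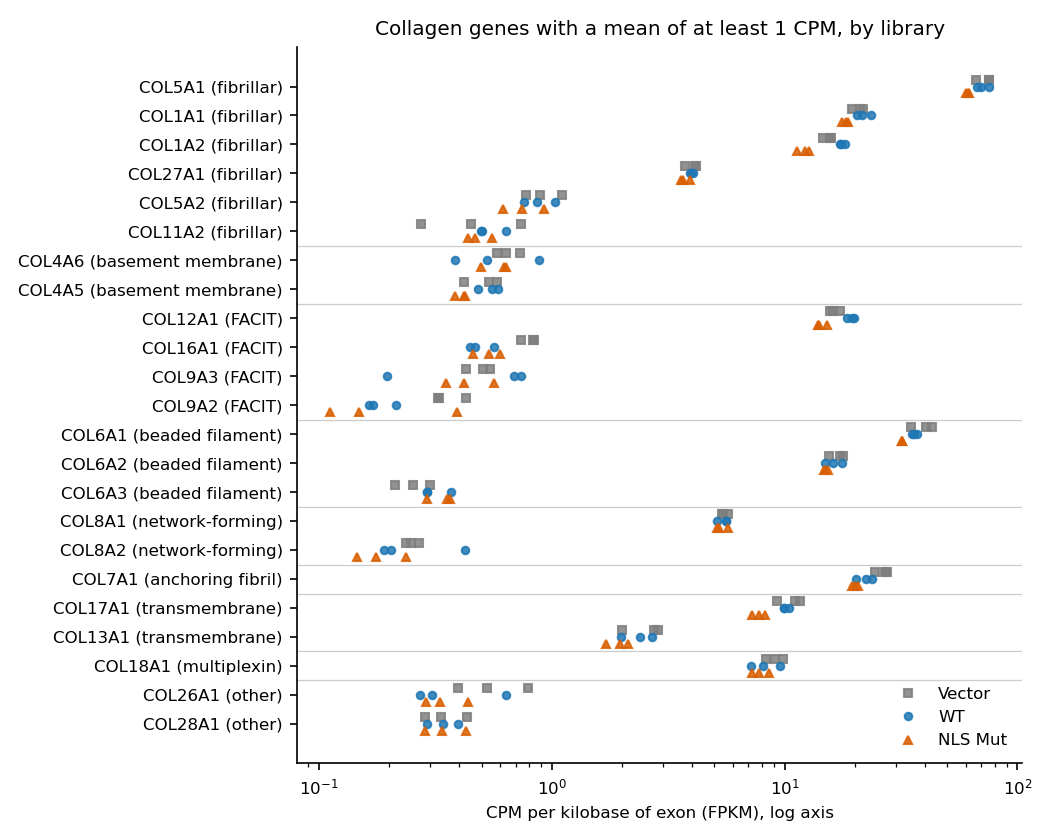
Level of each of the 23 collagen genes at 1 CPM or more in each of the 9 libraries, as CPM per kilobase of exon (FPKM) on a log axis, grouped by class. Grey squares are Vector, blue circles WT and orange triangles NLS Mut, and COL5A1 lies above all other genes in every library.

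The members nearest to the threshold were COL9A2 (1.07 CPM) and COL8A2 (1.10 CPM) above it and COL15A1 (0.956 CPM) and COL5A3 (0.954 CPM) below it. Of the 21 genes below, 10 lay between 0.1 and 1 CPM, 8 had reads but lay under 0.1 CPM, and COL6A5, COL19A1 and COL22A1 had 0 reads in the 9 libraries. COL4A1 (0.515 CPM, 103 reads in all) and COL4A2 (0.135 CPM, 29 reads), the chains of the common basement membrane network, were among the low genes. COL3A1, the fibrillar collagen of distensible tissue, had 1, 12 and 5 reads in the WT libraries and 0 in each of the other 6. LUM, a fibroblast gene, had 2, 1 and 1 reads in WT and 0 elsewhere. Both were too low for the test. A count of 0 in a single library still allows a mean of up to about 3 reads there, and 0 in several libraries together allows less.

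Differences were tested with edgeR's quasi-likelihood test on all 18653 genes that passed its filter on low counts, with Benjamini-Hochberg adjustment and a threshold of 0.05. The filter kept 28 of the 44 collagen genes, the 23 above and COL15A1, COL5A3, COL4A4, COL20A1 and COL4A1. Calls were 3 of 28 higher and 0 lower in WT than in NLS Mut, 0 and 0 in WT against Vector, and 0 higher and 5 lower in NLS Mut than in Vector. The share of all tested genes called was 0.3% higher and 0.204% lower in WT than in NLS Mut, 0.214% and 0.343% in WT against Vector, and 0.295% and 0.499% in NLS Mut against Vector. At an unadjusted p under 0.05, 8 collagen genes were higher and 0 lower in WT than in NLS Mut, 2 and 2 in WT against Vector, and 1 and 11 in NLS Mut against Vector. Of all tested genes 5.55% were higher and 5.999% lower at that level in WT against NLS Mut, 5.19% and 6.52% in WT against Vector, and 6.13% and 6.03% in NLS Mut against Vector. WT against NLS Mut and NLS Mut against Vector share the NLS Mut libraries, so their calls are not independent of each other.

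With DESeq2 the calls were 5 higher and 0 lower in WT than in NLS Mut (1.35% and 1.05% of the 12867 genes with a DESeq2 adjusted p). They were 2 and 2 in WT against Vector (1.13% and 1.09% of 11782), and 0 and 6 in NLS Mut against Vector (2.02% and 1.84% of 10697). None of the 11 members between 1 and 10 CPM had a DESeq2 adjusted p in NLS Mut against Vector. COL9A3, COL28A1, COL26A1, COL8A2 and COL9A2 had none in any comparison. The DESeq2 counts of members thus rest on fewer than 28 genes. In 8 of the 28 genes every WT library was above every NLS Mut library and in 0 every one was below, against 8.25% and 9.42% of all genes. Between WT and Vector these counts were 2 and 3 (6.53% and 6.54%), and between NLS Mut and Vector 0 and 10 (9.28% and 8.82%). The median log2 fold change of the 28 genes was 0.19, -0.03 and -0.20 in the 3 comparisons, beside -0.01, 0.00 and 0.00 over all genes. Of the 12 genes at 10 CPM or more, 12 had a positive difference between WT and NLS Mut and 12 a negative one between NLS Mut and Vector, whereas 3 were positive between WT and Vector (48.9%, 49.7% and 49.5% of all genes were positive in WT against NLS Mut, NLS Mut against Vector and WT against Vector). After a correction for GC content and length, 11 of the 12 were positive, 12 negative and 8 positive. Their SEs were 0.05 to 0.15, against 0.19 to 0.53 for the 11 genes between 1 and 10 CPM in WT against NLS Mut.

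**Figure D2:**
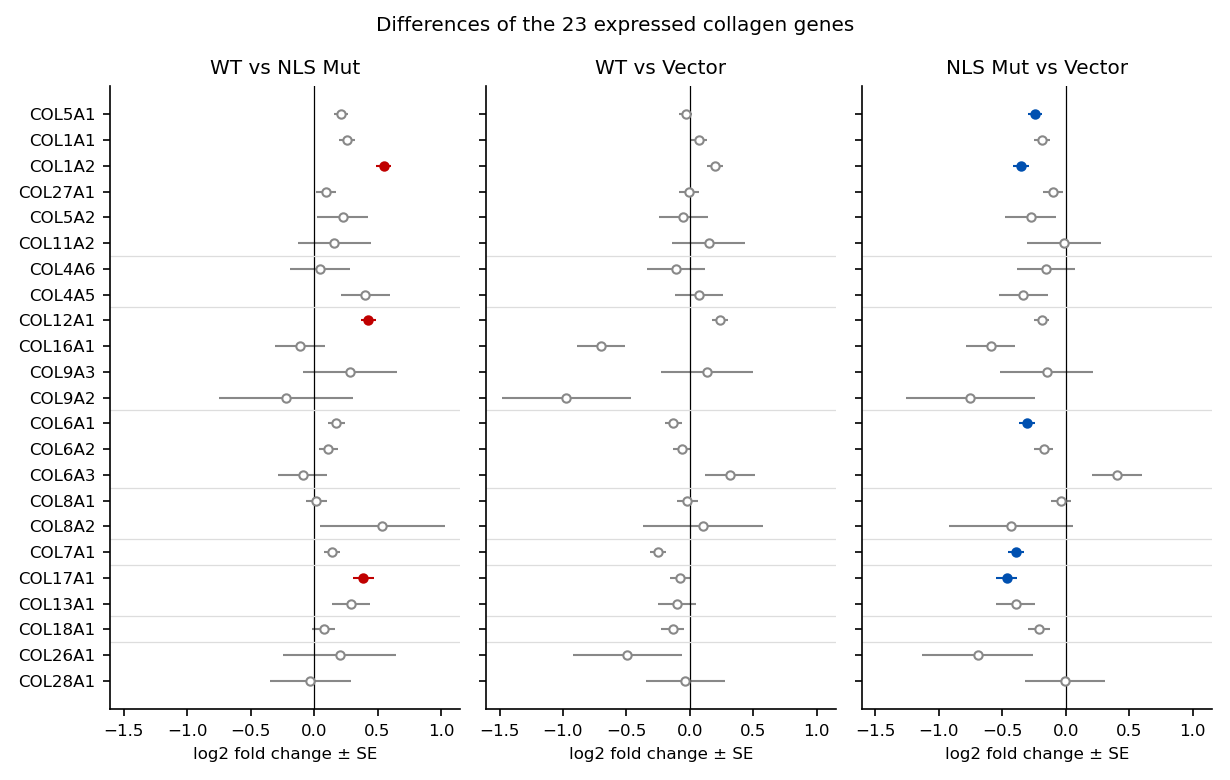
Log2 fold change with its SE for the 23 expressed collagen genes in each comparison, in the order of the classes. Filled red points are called higher (COL1A2, COL12A1 and COL17A1 in WT against NLS Mut), filled blue points lower (COL5A1, COL1A2, COL6A1, COL7A1 and COL17A1 in NLS Mut against Vector), and open points did not pass the threshold.

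Among the fibrillar collagens COL1A2 was higher in WT than in NLS Mut, and COL1A2 and COL5A1 were lower in NLS Mut than in Vector. The 7 tested fibrillar genes, 6 of which were expressed, had a median log2 fold change of 0.22 in WT against NLS Mut, with 7 of 7 positive and 1 called. The median was -0.01 in WT against Vector, with 3 of 7 positive and 0 called, and -0.24 in NLS Mut against Vector, with 7 of 7 negative and 2 called. With GC content and length corrected for, the medians were 0.20 with 7 of 7 positive, 0.035 with 5 of 7 positive, and -0.17 with 6 of 7 negative. The median in WT against Vector also turned positive without Vector replicate 1 or 2 (0.026 and 0.025) or WT replicate 3 (0.085).

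COL1A2 lies at chr7:94394561-94431232 (GENCODE 29, GRCh38). It was at 177, 163 and 176 CPM in the Vector libraries, 195, 192 and 203 in WT and 142, 126 and 136 in NLS Mut. The 3 groups did not overlap, with WT highest and NLS Mut lowest. The log2 fold change was 0.55 in WT against NLS Mut (1.46-fold, SE 0.06, adjusted p = 1.4e-05, edgeR), -0.35 in NLS Mut against Vector (SE 0.06, adjusted p = 0.0033) and 0.20 in WT against Vector (SE 0.06, adjusted p = 0.16). The first kept its call without each of the 9 libraries in turn. The second lost it without NLS Mut replicate 2, at -0.31. COL1A2 and COL12A1 are among the genes that the study singled out on these libraries, so they are not independent evidence of a direction. For COL1A2 the study also reported higher expression with F-78(WT) than with F-78(NLS Mut) in another lung cancer line.

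COL1A1, at 191, 207 and 213 CPM in Vector, 202, 229.9 and 212 in WT and 181, 184 and 173 in NLS Mut, had its lowest libraries in NLS Mut as well. WT and Vector overlapped. Its log2 fold change of 0.26 in WT against NLS Mut just missed the threshold (SE 0.06, adjusted p = 0.052, edgeR) and passed it under 8 of the 9 other models, DESeq2 among them (adjusted p = 0.0051), but in only 3 of the 9 fits that left out 1 library (without Vector replicate 1 or 3 or WT replicate 1), with adjusted p up to 0.26. Against Vector it was -0.19 in NLS Mut (adjusted p = 0.17) and 0.07 in WT (adjusted p = 0.72), and with GC content and length corrected for -0.095 (adjusted p = 0.45) and 0.14 (adjusted p = 0.16). The type I helix holds a pair of chains from COL1A1 and a single one from COL1A2.

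The level of COL1A2 over that of COL1A1, per kilobase of exon and thus free of the scaling between libraries, was 0.817, 0.690 and 0.724 in Vector, 0.852, 0.736 and 0.846 in WT and 0.693, 0.604 and 0.694 in NLS Mut. Every WT library was above every NLS Mut library, and Vector overlapped both. On the log2 scale WT and NLS Mut differed by 0.29 (p = 0.10, 2-sided exact permutation test), the smallest p that 3 against 3 allows, and 0.45 after adjustment over 18 comparisons of 6 pairs of chains. Leaving out 1 library, a check chosen after the data were seen, gave 0.22 to 0.36. WT differed from Vector by 0.13 (exact p = 0.2) and NLS Mut from Vector by -0.16 (exact p = 0.3).

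**Figure D3:**
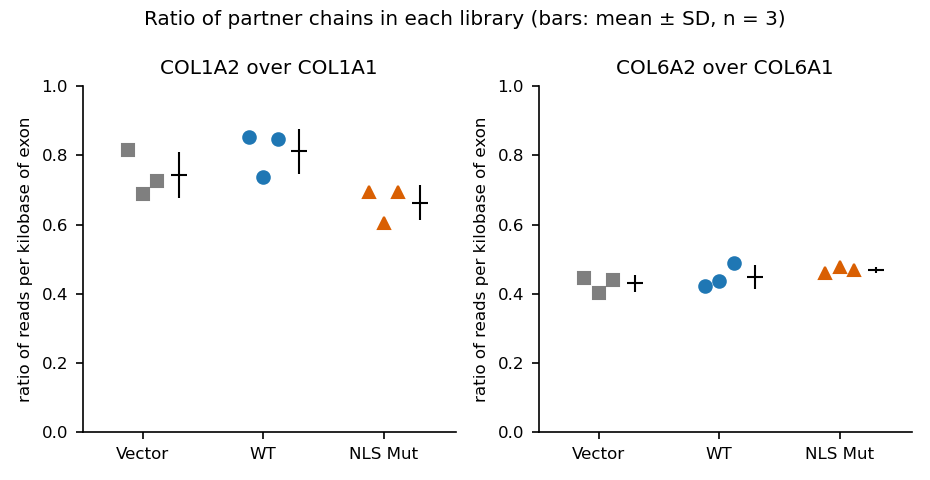
Ratio of the reads per kilobase of exon of 2 chains of one collagen in each library, for type I (left) and type VI (right), with mean ± SD of 3 libraries. For type I the WT libraries lie between 0.736 and 0.852 and the NLS Mut libraries between 0.604 and 0.694, and for type VI the groups overlap between WT and the others.

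COL5A1 lies at chr9:134641774-134844843. It was at 741, 849 and 845 CPM in Vector, 780.3, 848 and 750.0 in WT and 697, 675 and 686 in NLS Mut. The NLS Mut libraries were the lowest, while WT and Vector overlapped. NLS Mut was lower than Vector by 0.24 on the log2 scale (-0.24, SE 0.05, adjusted p = 0.026, edgeR), and this call was lost without any 1 of Vector replicates 2 and 3 and the 3 NLS Mut libraries, at -0.26 to -0.21. WT was 0.21 above NLS Mut (SE 0.05, adjusted p = 0.072), a difference that DESeq2 called (adjusted p = 0.022), and differed from Vector by -0.03 (adjusted p = 0.88). COL5A2, its partner chain, had differences of 0.22, -0.05 and -0.28 in WT against NLS Mut, WT against Vector and NLS Mut against Vector, none of which passed.

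The remaining fibrillar genes were not called in any comparison. COL27A1, a fibrillar collagen of cartilage, was at 56.0 ± 3.32 CPM in Vector (SD, n = 3), 55.7 ± 0.88 in WT and 52.3 ± 2.28 in NLS Mut, and COL11A2, a chain of type XI, at 3.29 ± 1.59, 3.67 ± 0.529 and 3.27 ± 0.403. COL5A3, below 1 CPM, was at 1.23, 1.01 and 0.618 CPM in the 3 groups, with 8 to 51 reads per library.

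The basement membrane collagens, here type IV only, were low, and 0 of the 4 tested genes were called in any comparison by edgeR. DESeq2 called neither COL4A5 nor COL4A6, but gave them no adjusted p in NLS Mut against Vector, so it could not call them there. COL4A4 and COL4A1 were lower still than COL9A2, which had no DESeq2 adjusted p in any comparison. The lack of a DESeq2 call therefore says nothing of COL4A4 and COL4A1. COL4A5 and COL4A6, which lie head to head on the X chromosome, were the 2 expressed genes of the class. COL4A5 was at 4.99, 6.37 and 6.92 CPM in Vector, 7.01, 5.70 and 6.56 in WT and 4.98, 4.55 and 5.05 in NLS Mut. Its WT libraries were above those of NLS Mut, by 0.40 on the log2 scale (SE 0.19, adjusted p = 0.42, edgeR). COL4A6 ranged from 3.57 to 8.17 CPM within WT alone, and its difference between WT and NLS Mut was 0.05 (SE 0.23, adjusted p = 0.97). COL4A4 and COL4A1, at under 1 CPM, had SEs of 0.62 and 0.83 in that comparison, so that a change of 2-fold, which is 1 on the log2 scale, was not detectable at this depth. The median of the 4 genes was 0.22 in WT against NLS Mut, -0.02 in WT against Vector and -0.14 in NLS Mut against Vector, and the first turned to -0.01 without WT replicate 2.

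Of the FACIT genes COL12A1 was higher in WT than in NLS Mut. It was at 217, 202 and 195 CPM in Vector, 243, 233 and 248 in WT and 189, 173 and 176 in NLS Mut. As for COL1A2, the 3 groups did not overlap. The log2 fold change was 0.43 in WT against NLS Mut (1.34-fold, SE 0.06, adjusted p = 0.00026, edgeR), 0.24 in WT against Vector (SE 0.06, adjusted p = 0.063) and -0.19 in NLS Mut against Vector (SE 0.06, adjusted p = 0.15). The first was called without each library in turn. DESeq2 called all 3 (adjusted p = 1.9e-09, 0.0085 and 0.048).

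COL16A1, a FACIT of skin and cartilage, was at 7.76, 7.71 and 6.81 CPM in Vector, 4.11, 4.35 and 5.25 in WT and 4.25, 4.98 and 5.56 in NLS Mut. Both groups that received GRP78 were below Vector in all libraries, and they overlapped each other. Its log2 fold change against Vector was -0.70 in WT (SE 0.19, adjusted p = 0.093, edgeR) and -0.59 in NLS Mut (SE 0.19, adjusted p = 0.16), so neither passed. DESeq2 called the former (adjusted p = 0.037) and gave no adjusted p for the latter. COL9A2, a chain of the cartilage collagen IX, had values of 1.39, 1.81 and 1.37 CPM in Vector against 0.904, 0.693 and 0.723 in WT, with a difference of -0.97 (SE 0.51, adjusted p = 0.47). COL9A3 was at 2.39 ± 0.282, 2.62 ± 1.45 and 2.16 ± 0.523 CPM in Vector, WT and NLS Mut (SD, n = 3). The median of the 5 tested FACIT genes was 0.28 in WT against NLS Mut, 0.13 in WT against Vector and -0.19 in NLS Mut against Vector, where a filter at 1 CPM, which removes COL20A1, made it -0.39. The medians in WT against NLS Mut and in WT against Vector are the values of COL9A3 (SEs 0.37 and 0.36). Without 1 library COL9A3 ranged from 0.018 to 0.69 in the former and from -0.14 to 0.53 in the latter.

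COL17A1, the transmembrane collagen of the hemidesmosome that ties basal epithelial cells to the basement membrane, differed in NLS Mut from both other groups. It lies at chr10:104031286-104085957 and was at 82.5, 65.7 and 78.7 CPM in Vector, 70.6, 74.0 and 70.5 in WT and 54.8, 51.4 and 58.4 in NLS Mut. NLS Mut lay below the other libraries, and WT lay within Vector. The log2 fold change was 0.39 in WT against NLS Mut (1.31-fold, SE 0.08, adjusted p = 0.024, edgeR), -0.46 in NLS Mut against Vector (SE 0.08, adjusted p = 0.0033) and -0.08 in WT against Vector (adjusted p = 0.79). The first lost its call without WT replicate 1 or 3 or NLS Mut replicate 1 or 2 (adjusted p up to 0.20) and the second without NLS Mut replicate 2, with differences of 0.35 to 0.44 and -0.56 to -0.41 over the 9 libraries left out in turn. COL13A1, the other expressed transmembrane gene, was at 15.0 ± 2.74, 13.9 ± 2.11 and 11.4 ± 1.21 CPM in Vector, WT and NLS Mut (SD, n = 3), and did not pass (adjusted p = 0.26 in NLS Mut against Vector).

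COL7A1, at chr3:48564073-48595267, was lower in NLS Mut than in Vector. It was at 271, 299.6 and 306 CPM in Vector, 226, 263 and 248 in WT and 223, 215 and 229.6 in NLS Mut. Vector was above all libraries of both other groups, which overlapped. The log2 fold change was -0.39 in NLS Mut against Vector (SE 0.06, adjusted p = 0.00075, edgeR), called without each library in turn, -0.25 in WT against Vector (SE 0.06, adjusted p = 0.056) and 0.14 in WT against NLS Mut (SE 0.06, adjusted p = 0.36). DESeq2 called WT against Vector as well (adjusted p = 0.016), whereas correcting for GC content and length brought it to -0.12 (adjusted p = 0.22). Before that correction COL7A1 was the only one of the 5 genes lower in NLS Mut than in Vector whose WT libraries were also all below Vector.

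Of the type VI chains COL6A1 (chr21:45981737-46005050) was lower in NLS Mut than in Vector. It was at 186, 230.5 and 217 CPM in Vector, 189, 199 and 192 in WT and 171, 172 and 170.2 in NLS Mut. NLS Mut was below the other libraries and spread least. Its log2 fold change was -0.30 in NLS Mut against Vector (SE 0.07, adjusted p = 0.02, edgeR), 0.17 in WT against NLS Mut (adjusted p = 0.27) and -0.13 in WT against Vector (adjusted p = 0.44). The call was lost without Vector replicate 2 or 3 or any of the NLS Mut libraries, at -0.31 to -0.24. COL6A2 had 91.2 ± 6.63, 87.5 ± 7.11 and 81.0 ± 1.48 CPM in Vector, WT and NLS Mut (SD, n = 3) and did not pass (-0.17, adjusted p = 0.33 in NLS Mut against Vector).

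COL6A3 was the only one of the 23 expressed genes with a positive difference between NLS Mut and Vector, 0.40 (SE 0.20, adjusted p = 0.40, edgeR). It had 5.91, 4.16 and 5.00 CPM in Vector, 5.74, 5.74 and 7.23 in WT and 5.72, 6.94 and 7.20 in NLS Mut. Its ratio to COL6A1 per kilobase was above Vector in all NLS Mut libraries, by 0.70 on the log2 scale. The exact permutation test gave p = 0.10, the smallest possible, and 0.45 after adjustment over the 18 ratio comparisons. The ratio of COL6A2 to COL6A1 was 0.430 ± 0.0243 in Vector, 0.450 ± 0.0350 in WT and 0.470 ± 0.00835 in NLS Mut (SD, n = 3). This ratio was also above Vector in all NLS Mut libraries, by 0.13 on the log2 scale (exact permutation test, p = 0.10, and 0.45 after the same adjustment).

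**Figure D4:**
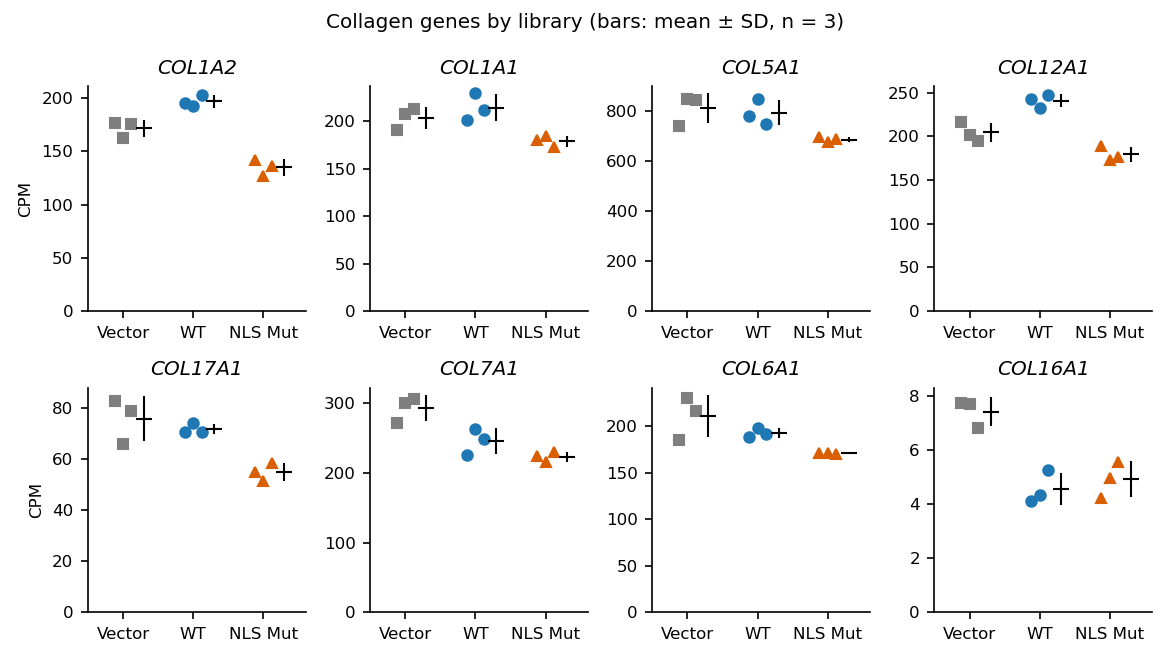
CPM of 8 collagen genes in each library, with the mean ± SD of 3 libraries beside the points and each axis starting at 0. NLS Mut is lowest for COL1A2, COL1A1, COL5A1, COL12A1, COL17A1 and COL6A1, the NLS Mut and WT libraries overlap for COL7A1 and COL16A1, and the WT libraries of COL1A2 and COL12A1 lie above Vector.

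The other expressed members passed the threshold in no comparison. COL8A1, a network-forming chain, was at 51.9 ± 1.71, 51.2 ± 2.36 and 50.5 ± 2.82 CPM in Vector, WT and NLS Mut (SD, n = 3), and its largest log2 fold change of the 3 was -0.04 (SE 0.08). COL18A1, the multiplexin from which endostatin is released, was at 77.5 ± 6.39, 70.5 ± 10.2 and 67.1 ± 5.59 CPM. It shares 1401 exonic bases, 16.4% of its length, with SLC19A1 on the opposite strand, and the 2 cannot be told apart there without strand. COL8A2, COL26A1 and COL28A1 had means of 1.10 to 2.30 CPM over the 9 libraries and SEs of 0.31 to 0.49.

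The collagen genes are rich in G and C, with a median exonic GC content of 59.9% in the 23 expressed genes against 49.3% in all tested genes. Across 18187 genes the log2 fold change ran with GC content in the comparisons with Vector (Spearman -0.32 for NLS Mut and -0.29 for WT) and hardly in WT against NLS Mut (0.02). With GC content and length fitted, the difference between NLS Mut and Vector was -0.35 for COL1A2 (adjusted p = 0.00013, edgeR), -0.43 for COL17A1 (0.0013), -0.26 for COL7A1 (0.00094), -0.17 for COL5A1 (0.027) and -0.23 for COL12A1 (0.0059). COL6A1, at -0.17 (adjusted p = 0.081), was no longer called, and COL6A2 was at -0.02. In WT against NLS Mut the correction raised the calls over all genes from 56 higher and 38 lower to 211 (1.13%) and 233 (1.25%), and those among the members from 3 and 0 to 6 and 0, COL1A2 (0.52), COL12A1 (0.40), COL17A1 (0.38), COL1A1 (0.24), COL5A1 (0.19) and COL6A1 (0.18).

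**Figure D5:**
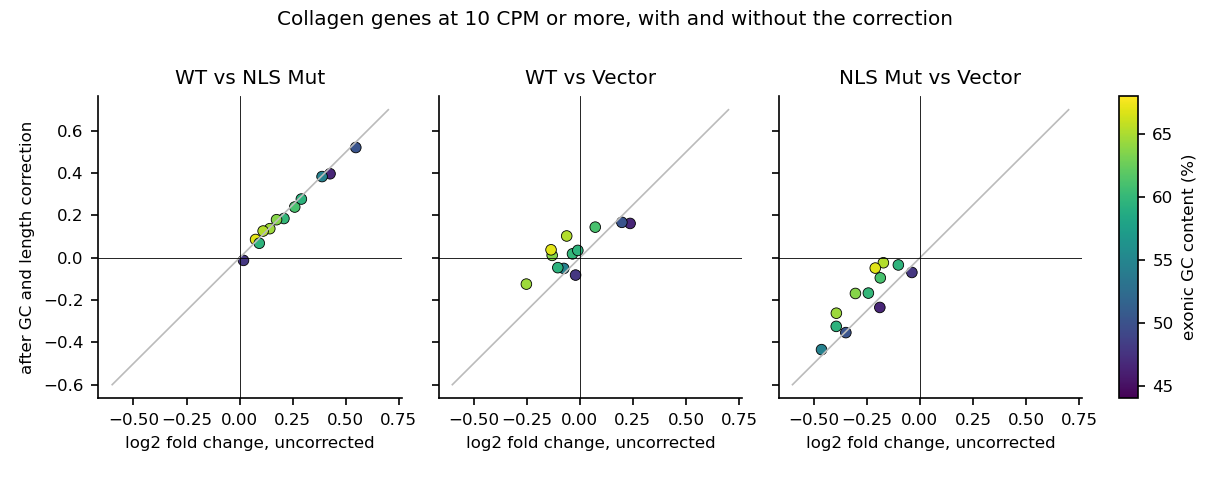
Log2 fold change of the 12 collagen genes at 10 CPM or more before (x axis) and after (y axis) the correction for GC content and length, coloured by exonic GC content, with the line of equality in grey. Points lie close to the line in WT against NLS Mut, and in the comparisons with Vector the genes of high GC content lie above it.

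Genes that make, export, process, cross-link, bind or cut collagen were followed as a list of 55, of which 49 were tested. BMP1, the protease that removes the C-terminal propeptide of fibrillar procollagens, was the only one called. It was at 143, 157 and 162 CPM in Vector, 141, 158 and 153 in WT and 127, 129 and 116 in NLS Mut. NLS Mut lay below the other libraries, at -0.31 on the log2 scale against Vector (SE 0.07, adjusted p = 0.02, edgeR), and WT was 0.28 above NLS Mut (adjusted p = 0.055). The exonic GC content of BMP1 is 61.2%, and differences between NLS Mut and Vector ran with GC content over all genes. Whether the BMP1 call holds under the GC and length correction or without single libraries is not given here. The list had 0 higher and 0 lower calls in WT against NLS Mut and in WT against Vector, with 9 and 0 genes at an unadjusted p under 0.05 in the former, 6 and 3 in the latter, and 4 and 7 in NLS Mut against Vector, beside the shares of all genes at that level given above. Its median log2 fold change was 0.06, 0.03 and -0.04 in the 3 comparisons.

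By role, 17 of 18 modification and folding genes, 6 of 6 export, 6 of 8 processing, 5 of 5 cross-linking, 9 of 11 receptor and 6 of 7 collagenase and gelatinase genes were tested. The most abundant of each per kilobase were P4HB, the disulfide isomerase subunit of prolyl 4-hydroxylase (149.8 FPKM), SEC23A of the COPII coat (24.3), LOXL2, a lysyl oxidase (68.5), ITGB1, the common chain of the collagen-binding integrins (175), and MMP14, a membrane-bound collagenase (64.1). BMP1 (19.1) led the processing genes. In WT against NLS Mut P4HB had a difference of 0.15 (adjusted p = 0.22, edgeR), LOXL2 of 0.13 (adjusted p = 0.28), ITGB1 of 0.14 (adjusted p = 0.21) and MMP14 of 0.00 (adjusted p = 1.00). SERPINH1, the collagen chaperone HSP47, had 0.16 (adjusted p = 0.22) and was chosen after its values were seen. Of the epithelial markers CDH1 was called higher in WT than in NLS Mut (0.27, adjusted p = 0.036) and lower in NLS Mut than in Vector (-0.25, adjusted p = 0.044), and KRT19 higher in WT than in NLS Mut (0.23, adjusted p = 0.044), and the part of these in the collagen values was not tested.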

How the data were processed

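RNA-Seq counts of 9 libraries of H1975 cells were used, 3 per group. The values are raw counts, which the authors deposited for every gene and library in the layout of STAR. Their processing notes name STAR 2.7.9a, DESeq2 1.36.0 and GRCh38.p14, without a role or order. The annotation release is not given in the sources used here, and 58325 of the 61544 gene identifiers, with all 44 collagen genes, were found in GENCODE 29, the source of positions, exonic lengths and GC content. The unstranded column served for all results, as 50.6% to 51.9% of reads fell on 1 strand. Lines that name no gene, 4 per library with 27.6% to 30.7% of its reads, were dropped. The 9 libraries were fitted together with edgeR 4.0.16 (R 4.3.3): filterByExpr, TMM factors of 0.989 to 1.02, 1 coefficient per group and glmQLFTest. CPM values carry the TMM factors. The SE of an edgeR log2 fold change was worked back from the test, as its absolute value over the square root of the F statistic. The median biological coefficient of variation was 11.2%, and depth and the SE limit what can be seen in genes under 10 CPM. Chi-square per degree of freedom between libraries of a group was 3.50 to 11.3, more than sampling noise gives, so each library counted once. Alternatives were DESeq2 1.42.0, its size factors, library size alone, a filter of 1 CPM in 3 libraries, no filter, the sum of both strands, only the groups compared, a replicate block, a loess correction (span 0.3) for GC content and length, an adjusted p under 0.01, and each library left out. Permutation tests used scipy 1.17.1. Members and lists were chosen with earlier results of these data known. Every member at 1 CPM or more, every member called, those next to the threshold and, of the partner list, genes called and the most abundant of each role are named.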

Additional observations from a re-analysis of the deposited data

How the results depend on the processing

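The number of expressed collagen genes stayed within 1.5 times of 23 under 13 alternatives, a band too wide to show that the exact count is stable. At a threshold of 0.5 CPM, COL15A1, COL5A3, COL4A4, COL20A1 and COL4A1 (0.515 to 0.956 CPM) also pass. The 3 collagen genes called higher in WT than in NLS Mut became 5 with DESeq2, with no filter, with only the 2 groups compared and with the replicate block, 6 with the GC and length correction, and 2 to 6 without 1 library (6 without Vector replicate 1). The 0 and 0 calls in WT against Vector became 2 higher and 2 lower with DESeq2, 1 and 1 with no filter and with the replicate block, 1 higher with the filter at 1 CPM, 1 lower with library size alone, and 0 to 2 higher and 0 to 2 lower without 1 library (2 and 2 without Vector replicate 1). The 5 calls lower in NLS Mut than in Vector became 3 at an adjusted p under 0.01, and 1 to 7 without 1 library (1 without NLS Mut replicate 2, 7 without Vector replicate 1). Same-numbered libraries did not pair (correlations of -0.02 to 0.06), so the replicate block rests on shared numbers only. Calls over all genes moved as well: higher in WT than in NLS Mut from 56 to 174 with DESeq2, 125 with no filter, 176 with only the 2 groups, 110 with the block, 211 with the GC and length correction and 20 to 203 without 1 library, WT against Vector from 40 higher and 64 lower to 526 and 730 without Vector replicate 1, and lower in NLS Mut than in Vector from 93 to 529 without Vector replicate 1 and 22 without NLS Mut replicate 2. The cause of these changes was not tested. COL1A2 and COL12A1 were called higher in WT than in NLS Mut, and COL7A1 lower in NLS Mut than in Vector, under all 18 alternatives at a threshold of 0.05. Of the 1311 values of single genes under alternatives, 1210 kept their direction and side of the threshold, 39 gained a call, 20 lost one and 42, none of them called, changed sign. Most of these values belong to differences not called in the main fit, which had no call to lose. In NLS Mut against Vector the call of COL6A1 was lost in 7 and kept in 12, and that of COL5A1 lost in 6 and kept in 13. The call of COL17A1 in WT against NLS Mut was lost in 5 and kept in 14. With the GC and length correction the log2 fold change in WT against Vector was 0.019 for COL5A1, 0.011 for COL6A1, 0.10 for COL6A2, 0.038 for COL18A1, 0.035 for COL27A1 and -0.0081 for COL4A5, that of COL8A1 in WT against NLS Mut -0.012 and that of COL11A2 in NLS Mut against Vector 0.14 (0.041 with the replicate block). COL9A3 was at -0.022 in WT against Vector with both strands. Without 1 library the ranges spanned 0 for these genes in WT against Vector: COL11A2 -0.13 to 0.57, COL13A1 -0.24 to 0.0080, COL27A1 -0.058 to 0.025, COL28A1 -0.17 to 0.15, COL4A5 -0.053 to 0.17, COL4A6 -0.50 to 0.13, COL5A1 -0.097 to 0.0074, COL5A2 -0.17 to 0.091, COL8A1 -0.038 to 0.023, COL8A2 -0.35 to 0.31, COL9A3 -0.14 to 0.53. In WT against NLS Mut they did for COL18A1 -0.034 to 0.17, COL26A1 -0.29 to 0.42, COL28A1 -0.15 to 0.14, COL4A6 -0.34 to 0.29, COL8A1 -0.0062 to 0.073, COL9A2 -0.52 to 0.48, and in NLS Mut against Vector for COL11A2 -0.30 to 0.41, COL28A1 -0.17 to 0.17. With 3 libraries per group, changes of genes under 10 CPM are limited by their standard errors.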
